A study of Homo sapiens with 4 samples.

Results

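Heat shock and chaperonin genes encode the machinery that folds new and damaged proteins. The group described here was fixed as a named list of 41 genes: the 8 subunits of the cytosolic chaperonin CCT, 5 prefoldin subunits, 5 mitochondrial chaperones, HSP90 and its co-chaperones, HSP70 and HSP110 proteins, J proteins and BAG factors, the small heat shock protein HSPB1 and the heat shock factors HSF1 and HSF2. All 41 genes were in the table of 27275 rows, and all 41 were among its 15920 rows with at least 10 counts in 2 or more libraries. The study asked which genes depend on RRM2, the small subunit of ribonucleotide reductase, the enzyme that makes deoxyribonucleotides for DNA synthesis. C4-2 cells, a human prostate cancer line derived from LNCaP cells, received a pool of siRNAs against RRM2 (RRM2 siRNA, 2 libraries) or a scrambled siRNA (2 libraries), both by lipid transfection. Since 1 pool was used in 1 cell line, effects of losing RRM2 and other effects of these siRNAs cannot be told apart. The sources used here give no time between transfection and RNA extraction for these libraries.

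Chaperones bind unfolded protein chains and release them in cycles that use ATP. HSP70 and its J-protein partners act early on many chains, HSP90 acts late on kinases and steroid receptors such as the androgen receptor, and the ring-shaped chaperonins enclose their clients, with actin and tubulin as the best known clients of CCT. Many of these genes are switched on by the transcription factor HSF1, which binds heat shock elements, repeats of the unit GAA in alternating orientation.

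Values are CPM, counts relative to the total of the library, scaled by the trimmed mean of M-values (TMM), a method that equalizes libraries on the bulk of genes. Each gene was tested with edgeR's quasi-likelihood test, with Benjamini-Hochberg adjustment over the 15840 genes with enough counts. Genes with an adjusted p under 0.05 were called lower or higher, whatever the size of the fold. Errors of log2 fold changes are standard errors (SE) from that fit, with n = 2 libraries per group. The sources used here do not state whether the 2 libraries of each group were separate cultures, so p-values measure the spread between libraries and that spread may be technical. CPM values are relative to the whole library, so less of a transcript per cell and fewer cells expressing it cannot be told apart.

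The RRM2 siRNA libraries held 28941206 to 29941671 counts and the scrambled siRNA libraries 27844121 to 28508906. RRM2 itself had 4.08 and 4.34 CPM with RRM2 siRNA, against 46.3 and 43.0 CPM with scrambled siRNA, a log2 fold change of -3.41 ± 0.08 (adjusted p = 2.60e-13, edgeR). Ribosomal RNA genes took 4.51% and 8.22% of the counts in RRM2 siRNA replicates 1 and 2, against 3.91% and 4.06% in the scrambled siRNA libraries, so that RRM2 siRNA replicate 2 stood apart. The 10 markers of prostate luminal cells were all measured and summed to 10771 and 10625 CPM with RRM2 siRNA, against 11636 and 12132 CPM with scrambled siRNA. Of 13 markers of stromal, endothelial, immune and basal cells, 7 had at most 4 counts in any library, and the other 6 summed to 112 and 108 CPM with RRM2 siRNA, against 93.9 and 92.1 CPM with scrambled siRNA, mainly from CD68 and COL1A1.

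Promoter sequence was read to show where the members carry the sequence that HSF1 is known to bind, beside the direction in which each gene moved. RefSeq windows of 300 bases (GRCh38.p14, 250 before to 50 after the start site) were at hand for 37 of the 41 members and for 27305 genes in all. A heat shock element of 3 units, written as GAANNTTC followed after any 2 bases by a further GAA, was searched on both strands. It was found in 6 of the 37 members (16.2%), against 0.608% of all genes with a window. The stretches below hold these elements in capitals, are written 5′ to 3′ on the strand of the gene, and give the position of the element relative to the start site. HSPD1 has 2 start sites in RefSeq, and its position counts from the one farther inside the gene. The HSPD1 element lies downstream of the other start site, outside that site's window (chr2:197500225-197500524). It also lies outside the window of the neighbour HSPE1 (chr2:197500129-197500428).
HSP90AA1, chr14:102087112-102087140, minus strand, -88 to -76: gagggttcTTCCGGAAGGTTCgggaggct
HSP90AB1, chr6:44247770-44247798, plus strand, -165 to -153: ggagcaggTTCTGGAAGATTCatgggctc
HSP90AB1, chr6:44247823-44247851, plus strand, -112 to -100: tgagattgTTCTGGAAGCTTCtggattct
HSPA8, chr11:123062346-123062374, minus strand, -230 to -218: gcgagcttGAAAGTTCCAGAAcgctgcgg
HSPA8, chr11:123062171-123062199, minus strand, -55 to -43: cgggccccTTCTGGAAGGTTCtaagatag
HSPD1, chr2:197500062-197500090, minus strand, -245 to -228: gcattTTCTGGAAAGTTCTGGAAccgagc
DNAJA1, chr9:33025268-33025296, plus strand, 4 to 16: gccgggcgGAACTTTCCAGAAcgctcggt
DNAJB6, chr7:157336865-157336893, plus strand, -131 to -119: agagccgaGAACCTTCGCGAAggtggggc

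The shorter forms GAANNTTC and TTCNNGAA, which lie inside the 3-unit element and also occur alone, were in 13 members (35.1%) and 11 members (29.7%), against 8.21% and 9.46% of all genes. Members with a shorter form but no 3-unit element went both ways. TCP1, CCT2, CCT4, HSPA9, HSPB1 and STIP1 were lower, HSPA1B, DNAJB4 and HSPA4L were higher, and DNAJB1, HSPA1A and PFDN6 did not pass. HSP90AA1, HSP90AB1, HSPA8 and HSPD1, with the 3-unit element, fell with RRM2 siRNA, and these calls held in all 12 alternative fits. DNAJA1 and DNAJB6, also with the element, were called higher by small amounts, and each lost its call without RRM2 siRNA replicate 1, DNAJA1 also in further alternatives. The E-box CACGTG, the sequence bound by MYC and related factors, was in 4 members (10.8%: HSF2, HSPA9, HSPD1 and HSPE1), against 8.78% of all genes. Of all 41 members 61.0% were lower, against 25.0% of all tested genes. Whether the direction of a gene goes with any of these sequences was not tested. A match describes the letters in the window and not a bound site.

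Most of the 41 genes were lower with RRM2 siRNA, by small amounts. At an adjusted p under 0.05, 25 members were lower (61.0%) and 8 higher (19.5%), and the remaining 8 missed the threshold. Over all tested genes 25.0% were lower and 25.4% were higher. The median log2 fold change of the members was -0.26, against -0.00 over all tested genes. In single libraries the members' median log2 ratio to the scrambled siRNA mean was -0.29 and -0.24 with RRM2 siRNA, against -0.01 and 0.01 with scrambled siRNA. Without RRM2 siRNA replicate 2, the library with more ribosomal RNA, 25 members were lower and 7 higher. The values of RRM2 siRNA and scrambled siRNA did not overlap in 38 members and overlapped in HSPA1A, HSF1 and HSF2. Over all tested genes the groups did not overlap in 75.0%, so separation of 2 libraries from 2 was common.

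**Figure D1:**
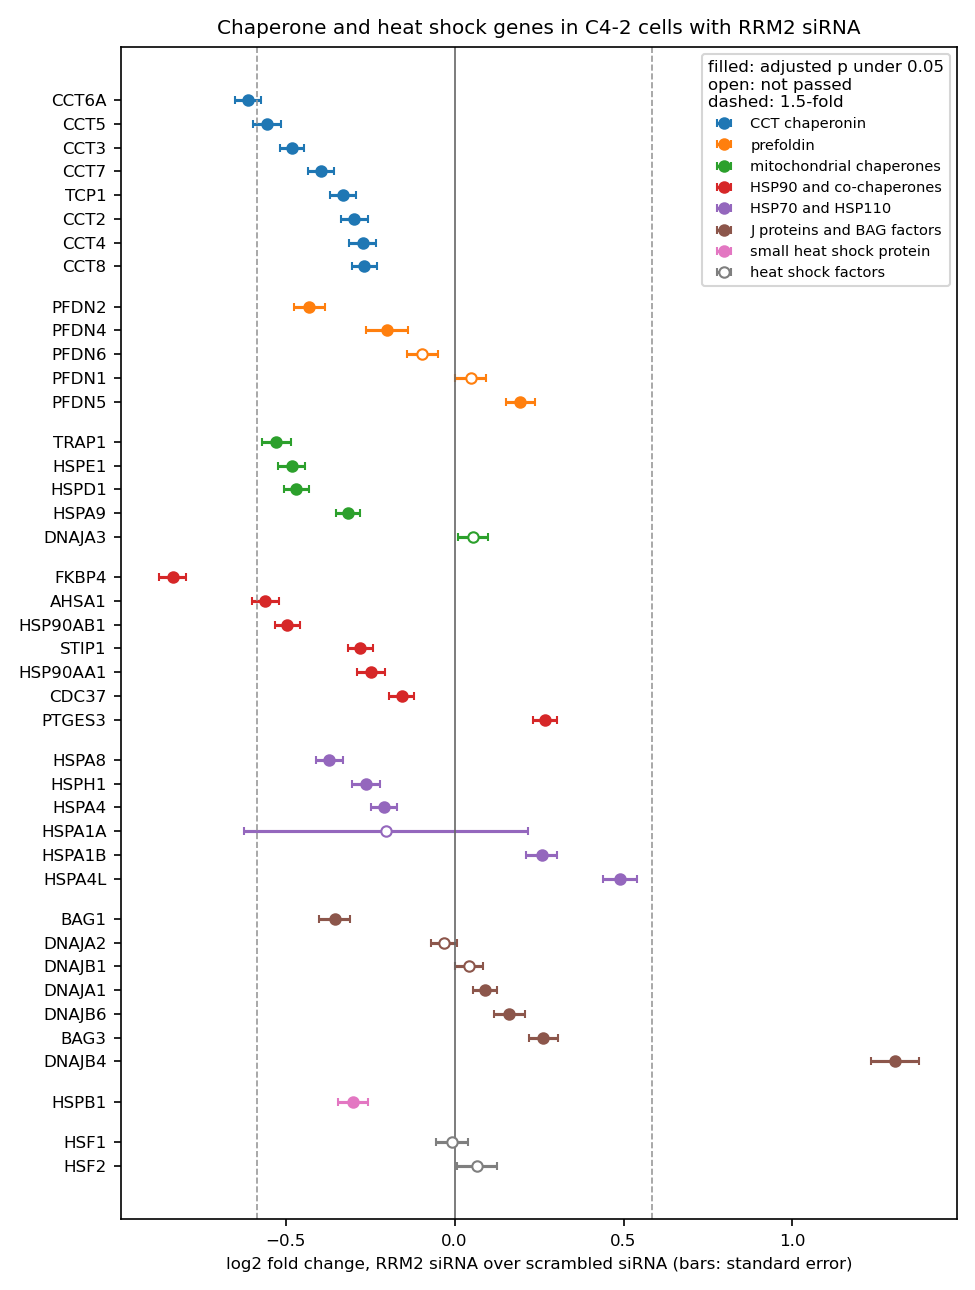
Log2 fold change of each of the 41 members (x axis, RRM2 siRNA over scrambled siRNA), grouped by role on the y axis, with bars for the standard error. Filled points passed an adjusted p under 0.05 (edgeR), open points did not, and the dashed lines stand at a fold change of 1.5. All 8 CCT subunits lie left of 0, and DNAJB4, at 1.30, lies farthest to the right.

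The members were abundant, and abundant genes were called more often. Their median mean count was 5609, against 676 over all tested genes. At a mean count of 1000 or more, a limit set after the values were seen, 31.5% of genes were lower and 32.7% higher, and of the 36 members above that limit 24 were lower and 6 higher. With a fold change over 1.5 also required, as the study did, only 2 members remained lower (CCT6A and FKBP4) and 1 higher (DNAJB4), beside 5.25% and 5.90% of all genes. The 41 genes took 1.43% and 1.42% of the counts in the RRM2 siRNA libraries, against 1.73% and 1.75% in the scrambled siRNA libraries. Their summed level was 13958 and 14511 CPM with RRM2 siRNA, against 17204 and 17644 CPM with scrambled siRNA, a ratio of the means of 0.817.

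**Figure D2:**
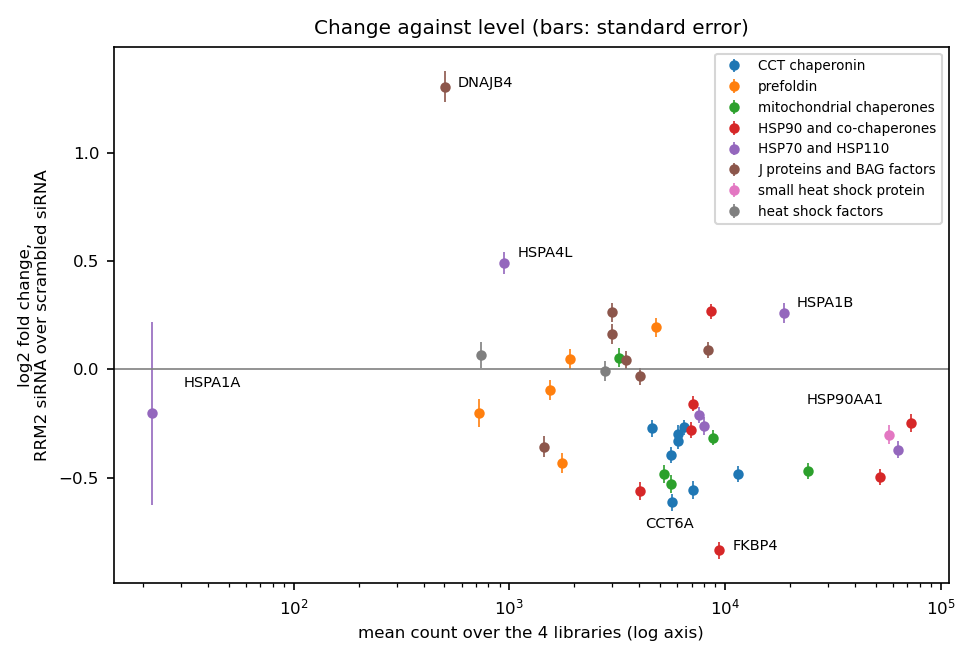
Log2 fold change (y axis, RRM2 siRNA over scrambled siRNA, bars for the standard error) against the mean count over the 4 libraries (x axis, log scale), with 1 point per member colored by role. The most abundant members, HSP90AA1, HSPA8, HSPB1 and HSP90AB1, all lie below 0, DNAJB4 and HSPA4L are among the less abundant members, and HSPA1A has the longest bar.

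All 8 subunits of CCT were lower with RRM2 siRNA, beside 25.0% of all tested genes. Each subunit fills its own place in both rings of the complex, and the 8 genes lie apart in the genome, on chromosome 6 (TCP1), 12 (CCT2), 1 (CCT3), 2 (CCT4 and CCT7), 5 (CCT5), 7 (CCT6A) and 21 (CCT8). CCT6A had 154 and 159.7 CPM with RRM2 siRNA, against 241 and 238 CPM with scrambled siRNA, and fell by 34.6% (log2 fold change -0.61 ± 0.04, adjusted p = 1.04e-08). CCT5 had 193 and 207 CPM with RRM2 siRNA, against 288 and 299 CPM with scrambled siRNA, and fell by 31.9% (-0.55 ± 0.04, adjusted p = 5.69e-08). CCT3, the subunit with the highest level per kilobase of transcript, had 329.7 and 339 CPM with RRM2 siRNA, against 462 and 472 CPM with scrambled siRNA (-0.48 ± 0.04, adjusted p = 5.12e-08). In these 3 subunits the gap between the groups was many times the gap between libraries of a group.

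The other 5 subunits had smaller estimates. CCT7 had 165 and 172 CPM with RRM2 siRNA, against 221 and 223 CPM with scrambled siRNA (-0.39 ± 0.04, adjusted p = 9.33e-07). TCP1, the founding subunit of the complex, had 186 and 189 CPM with RRM2 siRNA, against 238 and 233 CPM with scrambled siRNA (-0.33 ± 0.04, adjusted p = 3.61e-06). The groups did not overlap in either gene. CCT2 had 183 and 194 CPM with RRM2 siRNA, against 228 and 235 CPM with scrambled siRNA (-0.30 ± 0.04, adjusted p = 2.57e-05). CCT4 had 141 and 147 CPM with RRM2 siRNA, against 176 and 172 CPM with scrambled siRNA (-0.27 ± 0.04, adjusted p = 5.18e-05). CCT8 had 203 and 206 CPM with RRM2 siRNA, against 246 and 247 CPM with scrambled siRNA (-0.27 ± 0.04, adjusted p = 2.38e-05). Both RRM2 siRNA libraries were below both scrambled siRNA libraries in all 8 subunits, which held for 37.3% of all tested genes. Differences between subunits in the size of the fall were not tested.

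Summed over the 8 subunits, CCT had 1555 and 1614 CPM with RRM2 siRNA, against 2099 and 2119.7 CPM with scrambled siRNA, a ratio of 0.751. Per kilobase of transcript the subunits lay between 54.4 (CCT5) and 156 CPM (CCT3) with RRM2 siRNA, against 69.0 (CCT4) and 217 CPM (CCT3) with scrambled siRNA. Without the CCT subunits, 17 of the other 33 members were lower (51.5%) and 8 higher (24.2%), beside 25.0% and 25.4% of all tested genes. The median log2 fold change of these 33 was -0.20. An antisense gene, AC012640.4, covers 30.1% of the exon bases of CCT5, and the sources used here do not state whether counting used strand, so reads of these genes cannot be told apart.

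**Figure D3:**
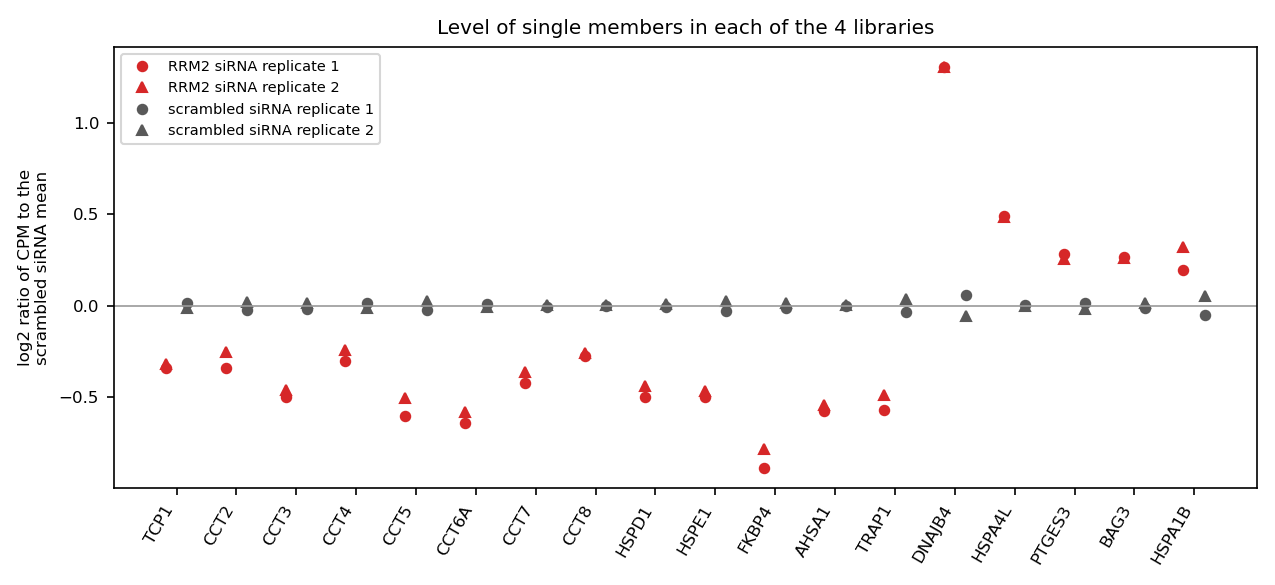
Log2 ratio of CPM to the scrambled siRNA mean (y axis) for 18 members (x axis) in each of the 4 libraries: RRM2 siRNA in red, scrambled siRNA in grey, circles for replicate 1 and triangles for replicate 2. The red points lie below the grey ones in the 8 CCT subunits, HSPD1, HSPE1, FKBP4, AHSA1 and TRAP1, and above them in DNAJB4, HSPA4L, PTGES3, BAG3 and HSPA1B.

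Prefoldin, which hands actin and tubulin chains to CCT, had members in both directions. Of its 5 subunits in the group, PFDN2 and PFDN4 were lower, PFDN5 was higher, and PFDN1 and PFDN6 did not pass. PFDN2 had 52.4 and 52.1 CPM with RRM2 siRNA, against 70.1 and 70.8 CPM with scrambled siRNA (-0.43 ± 0.05, adjusted p = 1.83e-06). PFDN5 had 174 and 179 CPM with RRM2 siRNA, against 149 and 159.7 CPM with scrambled siRNA (0.19 ± 0.04, adjusted p = 0.00155). PFDN4 differed by -0.20 ± 0.06 (adjusted p = 0.0143) and lost its call without RRM2 siRNA replicate 1 (0.110) or scrambled siRNA replicate 2 (0.103) and with DESeq2 (0.131). The 5 subunits summed to 370 and 374 CPM with RRM2 siRNA, against 366 and 379 CPM with scrambled siRNA. The summed level of these 5 subunits thus differed between the groups by less than the spread between libraries, while single subunits were lower or higher. A further prefoldin subunit outside the group, VBP1, is not in this sum and was higher (0.26 ± 0.05).

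Among the mitochondrial chaperones, 4 of 5 were lower with RRM2 siRNA (80%). Of all tested genes 25.0% were lower, and of those with a mean count of 1000 or more 31.5%. HSPD1 (HSP60) forms the chaperonin ring of the mitochondrial matrix, and HSPE1 (HSP10) is its lid. HSPD1 had 692 and 720.4 CPM with RRM2 siRNA, against 972 and 982 CPM with scrambled siRNA (-0.47 ± 0.04, adjusted p = 8.17e-08). HSPE1 had 149 and 153 CPM with RRM2 siRNA, against 207 and 215 CPM with scrambled siRNA (-0.48 ± 0.04, adjusted p = 1.42e-07). HSPD1 fell by 27.7% and HSPE1 fell by 28.4%, so the estimates for ring and lid lay within 1 SE of each other. TRAP1, the HSP90 of mitochondria, had 156 and 165 CPM with RRM2 siRNA, against 225 and 237 CPM with scrambled siRNA (-0.53 ± 0.04, adjusted p = 1.10e-07). HSPA9, the HSP70 of the matrix, fell less (-0.31 ± 0.04, adjusted p = 3.36e-06). DNAJA3, a J protein that works with HSPA9, had 114 and 114 CPM with RRM2 siRNA, against 113 and 107 CPM with scrambled siRNA, and did not pass (0.05 ± 0.04, adjusted p = 0.329).

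HSPD1 and HSPE1 are head-to-head neighbours on chromosome 2. The deposited table places HSPD1 at chr2:197486584-197500275 on the minus strand and HSPE1 at chr2:197499997-197503464 on the plus strand. The table names no genome build, and its positions overlap those of the same symbols in GRCh38.p14 for 99.6% of 24815 matched symbols. The exons of the 2 genes overlap by 281 bases on opposite strands in the GENCODE v29 annotation, so a share of reads at their starts cannot be assigned without strand. The stretch around the E-box of HSPE1, in the region between both start sites, is shown because this E-box lies in the promoter windows of both genes (E-box in capitals, plus strand, position relative to the HSPE1 start site).
HSPE1, chr2:197500345-197500374, -22 to -17: gggtgattttttCACGTGtcgccagggccg
Near-identical copies are a further limit for both genes. Of all 50-base words in their transcripts, 17.8% of those of HSPD1 and 14.9% of those of HSPE1 also occur at other loci, mostly processed pseudogenes. DNASE1 overlaps 29.3% of the exon bases of TRAP1 on the opposite strand.

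HSP90 and its co-chaperones were lower in 6 of 7 members (85.7%). This share was 25.0% over all tested genes and 31.5% over those with a mean count of 1000 or more. FKBP4 (FKBP52), an immunophilin that binds HSP90 and promotes signalling by the androgen receptor, had the largest fall of all 41 members. FKBP4 had 228 and 245 CPM with RRM2 siRNA, against 417 and 425 CPM with scrambled siRNA, and fell by 43.9% (-0.83 ± 0.04, adjusted p = 6.88e-10). AHSA1 (AHA1), which speeds the ATPase of HSP90, had 112 and 115 CPM with RRM2 siRNA, against 167 and 168 CPM with scrambled siRNA, and fell by 32.2% (-0.56 ± 0.04, adjusted p = 3.77e-08). The values of the RRM2 siRNA libraries lay well under those of the scrambled siRNA libraries in both genes. PTGES3 (p23), which binds the closed state of HSP90 and slows its ATPase, moved the other way. It had 327 and 321 CPM with RRM2 siRNA, against 272 and 266 CPM with scrambled siRNA, and rose by 20.4% (0.27 ± 0.04, adjusted p = 1.99e-05). STIP1 (HOP), which links HSP70 to HSP90, fell by 17.6% (-0.28 ± 0.04, adjusted p = 2.36e-05). CDC37, which brings kinases to HSP90, fell by 10.3% (-0.16 ± 0.04, adjusted p = 0.00207).

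Both cytosolic HSP90 genes were among the most abundant members and were read in full for that reason, after their values were seen. HSP90AB1, the constitutive form, had 1491 and 1538 CPM with RRM2 siRNA, against 2116 and 2153 CPM with scrambled siRNA (-0.50 ± 0.04, adjusted p = 5.80e-08). HSP90AA1, the heat-inducible form, had 2243 and 2364 CPM with RRM2 siRNA, against 2703 and 2767 CPM with scrambled siRNA (-0.25 ± 0.04, adjusted p = 1.19e-04). HSP90AB1 fell by 29.1% and HSP90AA1 fell by 15.8%, and the difference between these falls was not tested. Each carries at least 1 of the heat shock elements printed above. At other loci occur 16.6% of the 50-base words of HSP90AB1 and 14.9% of those of HSP90AA1. The 7 genes of this class summed to 4851 and 5035 CPM with RRM2 siRNA, against 6195 and 6310.2 CPM with scrambled siRNA, a ratio of 0.791.

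The HSP70 and HSP110 genes split. HSPA8 (HSC70), the constitutive HSP70 of the cytosol, had 1879 and 1976 CPM with RRM2 siRNA, against 2488 and 2496 CPM with scrambled siRNA (-0.37 ± 0.04, adjusted p = 1.89e-06). HSPA4 and HSPH1, HSP110 proteins that exchange the nucleotide of HSP70, fell by 13.5% (-0.21 ± 0.04, adjusted p = 2.58e-04) and by 16.6% (-0.26 ± 0.04, adjusted p = 7.68e-05). HSPA4L, a further HSP110 protein, moved the other way. It had 38.2 and 38.1 CPM with RRM2 siRNA, against 27.3 and 27.1 CPM with scrambled siRNA, and rose by 40.3% (0.49 ± 0.05, adjusted p = 1.51e-06). HSPA4L was less abundant than its relatives, with a mean of 38.2 CPM with RRM2 siRNA, against 245 CPM of HSPA4 in the same libraries. Per kilobase these were 3.54 and 50.9 CPM, on transcripts taken as 10.8 and 4.83 kilobases long. Which transcript the cells expressed was not determined.

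HSPA1A and HSPA1B, the stress-inducible HSP70 genes, encode nearly the same protein and lie side by side on chromosome 6, at chr6:31815514-31817943 and chr6:31827735-31830255 in the deposited table. Of the 50-base words of the HSPA1A transcript, 71.3% also occur in HSPA1B, and the split of reads between them is uncertain. The table gave HSPA1A 33 and 9 counts with RRM2 siRNA, against 27 and 19 counts with scrambled siRNA. It gave HSPA1B 20603 and 20863 counts with RRM2 siRNA, against 16229 and 16883 counts with scrambled siRNA. Nearly all reads of the locus were thus assigned to HSPA1B, of whose exon bases 36.5% are shared with the transcript AL671762.1. Of the 50-base words of HSPA1B, 71.4% occur at other loci and 73.5% in any other gene, so these overlaps do not add up. HSPA1B had 673 and 736 CPM with RRM2 siRNA, against 568 and 610.2 CPM with scrambled siRNA, and rose by 19.6% (0.26 ± 0.05, adjusted p = 2.55e-04). The 2 RRM2 siRNA libraries differed more in HSPA1B than in any other member besides HSPA1A, by 0.13 on the log2 scale, and both lay above both scrambled siRNA libraries. HSPA1A differed by -0.20 ± 0.42 (adjusted p = 0.721), with overlapping groups, and its sign turned with single libraries left out.

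J proteins and BAG factors, which steer HSP70 and release its clients, were the class with more members higher than lower. Of these 7 genes 4 were higher (57.1%) and 1 lower (14.3%), beside 25.4% and 25.0% of all tested genes. DNAJB4 and BAG3 stayed higher in all 12 alternative fits, while DNAJB6 and DNAJA1 lost their calls in some. DNAJB4, a J protein of the cytosol, had 24.5 and 24.5 CPM with RRM2 siRNA, against 10.3 and 9.54 CPM with scrambled siRNA, and rose by 147% (1.30 ± 0.07, adjusted p = 2.03e-09). This was the largest change in either direction among the 41 members, and 2.06% of the exon bases of DNAJB4 are shared with its neighbour GIPC2. BAG3, which couples HSP70 to small heat shock proteins and to selective autophagy, had 113 and 112 CPM with RRM2 siRNA, against 92.8 and 94.8 CPM with scrambled siRNA (0.26 ± 0.04, adjusted p = 1.18e-04). BAG1, a nucleotide exchange factor that links HSP70 to the proteasome, had 44.9 and 43.3 CPM with RRM2 siRNA, against 56.7 and 56.2 CPM with scrambled siRNA (-0.36 ± 0.05, adjusted p = 1.77e-05). BAG3 and BAG1 thus moved in opposite directions. DNAJB6, known for holding back protein aggregation, rose by 11.9% (0.16 ± 0.05, adjusted p = 0.00754), a call lost without RRM2 siRNA replicate 1 (0.118). DNAJA1, a partner of HSPA8, differed by 6.45% (0.09 ± 0.04, adjusted p = 0.0479), and its call was lost without either RRM2 siRNA library or scrambled siRNA replicate 1, where the adjusted p was 0.160 to 0.297. DNAJA2 and DNAJB1, the classical partner of HSP70 in the heat shock response, did not pass (-0.03 ± 0.04 and 0.04 ± 0.04, adjusted p = 0.541 and 0.413).

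HSPB1 (HSP27), the small heat shock protein of the group, holds unfolded chains without using ATP and had the highest level per kilobase of all members. HSPB1 had 1752 and 1829 CPM with RRM2 siRNA, against 2108 and 2303 CPM with scrambled siRNA (-0.30 ± 0.04, adjusted p = 5.34e-05). Per kilobase of transcript it had 1970 CPM with RRM2 siRNA, against 2426 CPM with scrambled siRNA. The next in this order with RRM2 siRNA were HSPA8 with 783, HSP90AA1 with 682 and HSP90AB1 with 566 CPM per kilobase. With scrambled siRNA these had 1012, 809 and 798 CPM per kilobase in the same order. The order of these 4 genes was the same in both groups. HSP90AA1, HSPA8, HSP90AB1 and HSPB1 together made up 52.8% and 53.1% of the members' counts with RRM2 siRNA, against 54.7% and 55.1% with scrambled siRNA.

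The transcripts of the heat shock factors themselves did not pass the test. HSF1, the main activator of the heat shock response, had 97.8 and 93.3 CPM with RRM2 siRNA, against 93.4 and 98.7 CPM with scrambled siRNA (-0.01 ± 0.05, adjusted p = 0.909). HSF2, its relative, had 25.5 and 27.0 CPM with RRM2 siRNA, against 25.8 and 24.3 CPM with scrambled siRNA (0.07 ± 0.06, adjusted p = 0.378). The groups overlapped in both genes, and HSF1 activity, which is set after translation, was not measured. Of 13 members listed as heat-inducible, 6 were lower (HSPH1, HSPB1, HSP90AA1, HSPD1, HSPE1 and HSPA8). Another 5 were higher (BAG3, HSPA1B, HSPA4L, DNAJB4 and DNAJA1), and HSPA1A and DNAJB1 did not pass. These shares are 46.2% lower and 38.5% higher, beside 25.0% and 25.4% of all tested genes. The list was written with earlier results of these data known and includes HSPA8, described above as constitutive, so the split depends on that choice. The median log2 fold change of these 13 was -0.20.

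Other genes of the folding pathways were read from lists of their own. Of 87 further cytosolic and mitochondrial genes, 81 were tested, of which 31 were lower (38.3%) and 21 higher (25.9%), while 29 did not pass. Their median log2 fold change was -0.04. Over all tested genes 25.0% were lower and 25.4% were higher. A list of 10 CCT and tubulin folding genes held the CCT6A paralog CCT6B, which had few counts and was lower, and 9 genes that work with CCT or on tubulin. Of these 9 genes 6 were lower, among them PDCL3, a phosducin-like CCT partner (-0.37 ± 0.07), and the tubulin cofactors TBCE (-0.32 ± 0.06) and TBCB (-0.30 ± 0.04). The other 3 were higher, with TXNDC9 at 0.23 ± 0.07, PDCL at 0.21 ± 0.05 and TBCC at 0.19 ± 0.06. Genes of this list thus moved both ways. Of 14 other mitochondrial folding and protease genes 8 were lower, led by the import motor subunits TIMM44 (-0.40 ± 0.05) and PAM16 (-0.34 ± 0.07). GRPEL1 was also lower (-0.30 ± 0.05), and 1 gene was higher, GRPEL2 (0.37 ± 0.05).

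The 19 other HSP90 partners had 6 lower (31.6%) and 3 higher genes (15.8%), and 10 did not pass. Over all tested genes these shares were 25.0% and 25.4%. RUVBL1, an ATPase that works with HSP90 in the assembly of large complexes, had 105 and 109 CPM with RRM2 siRNA, against 179 and 175 CPM with scrambled siRNA (-0.73 ± 0.04, adjusted p = 3.80e-09). NUDC (-0.23 ± 0.04) and the immunophilin PPID (-0.23 ± 0.05) were also lower, and CDC37L1 (0.58 ± 0.05), FKBP5 (0.27 ± 0.04) and AHSA2 (0.18 ± 0.05) were higher. FKBP5 (FKBP51), an androgen receptor target that competes with FKBP4 for HSP90, had 649 and 678 CPM with RRM2 siRNA, against 555 and 543 CPM with scrambled siRNA (adjusted p = 2.04e-05). The immunophilins FKBP4 and FKBP5 thus moved in opposite directions, as did AHSA1 and its relative AHSA2 and CDC37 and its relative CDC37L1. Of 17 other cytosolic HSP70 and J-protein genes tested, 5 were lower, with HSPA6 at -0.52 ± 0.14, HSPA12A at -0.46 ± 0.06 and DNAJC13 at -0.21 ± 0.05. In the same list 5 were higher, with DNAJC27 at 0.45 ± 0.09, DNAJB2 at 0.34 ± 0.04 and DNAJB5 at 0.33 ± 0.05. This is 29.4% of the list in either direction, close to the shares of all tested genes.

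The 10 exchange factors and other HSP70 partners had 4 lower (40%) and 5 higher genes (50%), beside 25.0% and 25.4% of all tested genes. HSPBP1 (-0.38 ± 0.05), the ubiquitin ligase STUB1 (CHIP, -0.31 ± 0.04) and SGTA (-0.31 ± 0.04) were lower, and BAG4 (0.30 ± 0.05), SGTB (0.28 ± 0.06) and ST13 (HIP, 0.20 ± 0.04) were higher. Of 4 other small heat shock proteins tested, HSPB8, a partner of BAG3, was higher, with 27.9 and 29.5 CPM with RRM2 siRNA, against 17.8 and 20.3 CPM with scrambled siRNA (0.59 ± 0.07, adjusted p = 4.02e-06), and 3 did not pass. HSPB8 thus rose as BAG3 did, while HSPB1 fell. Of 4 other prefoldin and prefoldin-like subunits, VBP1 was higher (0.26 ± 0.05) and UXT lower (-0.19 ± 0.05), and of 3 other genes around the heat shock factors HSF4 (0.17 ± 0.06) and HSBP1 (0.11 ± 0.04) were higher.

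Chaperones of the endoplasmic reticulum, a separate compartment with its own stress response, were mostly lower too. Of 17 tested, 13 were lower (76.5%, beside 25.0% of all tested genes), 1 was higher and 3 did not pass. The median log2 fold change was -0.42. HSPA5 (BiP), the HSP70 of this compartment, had 835 and 867 CPM with RRM2 siRNA, against 1547 and 1579.9 CPM with scrambled siRNA (-0.88 ± 0.04, adjusted p = 1.61e-10). MANF (-0.87 ± 0.04) and PDIA4 (-0.76 ± 0.04) followed, and DNAJB9 was the gene that rose (0.61 ± 0.05). The summed level was 6896 and 7081 CPM with RRM2 siRNA, against 9835 and 10004 CPM with scrambled siRNA, a ratio of 0.705. The median lay below the -0.26 of the 41 members, and the difference between the lists was not tested.

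**Figure D4:**
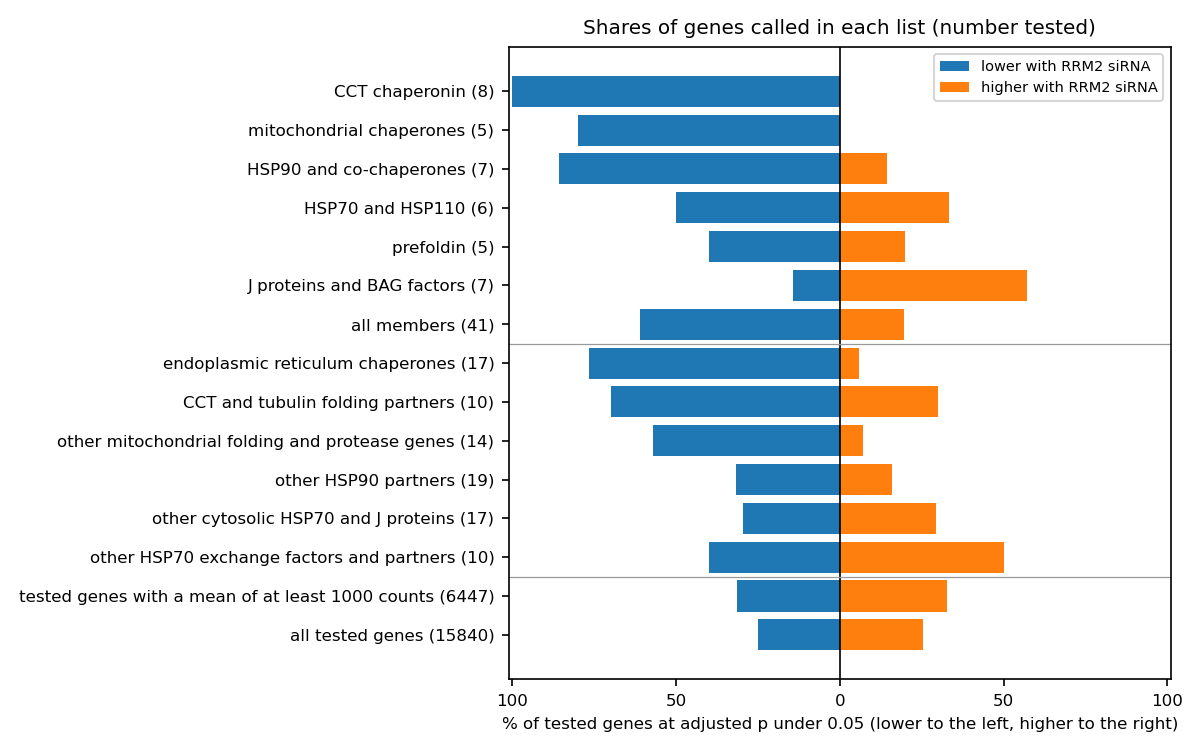
Percent of tested genes in each list that were lower (bars to the left) or higher (bars to the right) with RRM2 siRNA at an adjusted p under 0.05 (edgeR), with the number tested in parentheses. The upper block holds the members by role, the middle block other folding genes and the lower block all tested genes. The CCT subunits were lower in 100% of cases and J proteins and BAG factors in 14.3%, beside 25.0% of all genes.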

How the data were processed

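Total RNA of C4-2 cells was sequenced, with 2 libraries for either siRNA. The deposited values are estimated counts of each gene without normalization, which the authors made with Partek Flow (version not stated). Of the values above 0, 60.2% to 60.6% per library are exactly whole, and 27.0% to 28.7% of all values are 0. The sources used here name no aligner, annotation or build. A spreadsheet had turned 27 symbols into dates, and these hold 0.161% to 0.172% of the counts.

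The counts were rounded, filtered with filterByExpr, scaled by TMM and tested in R 4.3.3 with edgeR 4.0.16 (glmQLFit, glmQLFTest, Benjamini-Hochberg over 15840 genes). The fit was first tested on simulated data. The common coefficient of variation between libraries was 3.87%. Chi-square per degree of freedom between libraries of a group was 35.2 (RRM2 siRNA) and 3.66 (scrambled siRNA) over all genes, and 2.04 and 2.95 in that order without structural RNA genes, so no library was counted as a repeat.

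The members, lists and alternatives were chosen with earlier results of these data known. Every library's value is given for the CCT subunits, HSPD1, HSPE1, members past a fold of 1.5 and the 5 largest falls and rises, and for others as space allowed, picked after their values were seen. Of other pathway genes, up to 3 per list and direction with a mean of at least 100 counts are named, with a log2 fold change of the largest size. Alternatives were a replicate block, each library left out, DESeq2 1.42.0 or limma voom (3.58.1) as the test, DESeq2's size factors or the library total as scaling, no filter on low counts or 10 counts required in each of the 4 libraries, no ribosomal RNA genes, a fold over 1.5 and the members without HSPA1A and HSPA1B. Lengths and shared 50-base words are from GENCODE v29, with levels per kilobase on the longest principal transcript.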

Additional observations from a re-analysis of the deposited data

How the results depend on the processing

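With a fold change over 1.5 required, 2 members were lower instead of 25, 1 was higher instead of 8, 1 CCT subunit was lower instead of 8, and over all genes 831 were lower and 935 higher instead of 3954 and 4029, since most falls of the members were smaller than that fold. In the other alternatives 24 to 25 members were lower and 6 to 8 higher, and the 8 CCT subunits were lower in all 12 fits. With 1 library left out at a time, the lower members numbered 24 to 25, the higher members 6 to 8, the CCT subunits 8 to 8, the lower genes overall 3287 to 3778 and the higher genes 3309 to 3727, the members' median log2 fold change was -0.29 to -0.25 and RRM2 lay at -3.46 to -3.36. DESeq2 called 2735 genes lower and 2741 higher. Of 216 values, those of 18 members under 12 alternatives, 216 kept their direction and their call. These 18 were the CCT subunits, HSPD1, HSPE1, members past a fold of 1.5 and those with the largest falls and rises. All 18 passed in the main fit and some were picked for the size of their change, so a stable result was likely from the start. Of all 41 members, 37 changed no call. The exceptions were PFDN4, DNAJB6, DNAJA1 and HSPA1A. DNAJA1 also lost its call with library size alone (0.105), no filter (0.0876), DESeq2 (0.0957) and the block (0.0579). HSPA1A, with 9 to 33 counts, passed without RRM2 siRNA replicate 1 (log2 fold change -1.36, adjusted p = 0.0360, range 0.0360 to 0.954) and turned to 0.40 without RRM2 siRNA replicate 2 and to 0.04 without scrambled siRNA replicate 1.

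Libraries with the same replicate number did not deviate together (correlation of their deviations 0.016 over 14679 genes). With the replicate number as a block, 25 members were lower and 7 higher, the members' median was -0.26, and 4094 genes were lower and 4157 higher. With 2 libraries per group, levels of a few counts such as those of HSPA1A set the limit of what can be read.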
